A study of Mus musculus with 12 samples.

Results

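Fatty acid oxidation is carried by a set of enzymes, transporters and regulators, of which 32 genes were listed here by name. Every probe whose platform annotation gave one of these symbols was taken as a member, whatever its level. Acsl1, a long-chain acyl-CoA synthetase of the outer mitochondrial membrane, had no probe listed under its symbol, so that 31 genes with 57 probes were found among the 45281 probes of the array. Of these, 54 probes lay above background often enough to be tested, out of 23963 tested probes in all, and each of the 31 genes kept at least 1 of them.

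The ethanol group held 6 kidney samples from male C57BL/6J mice of postnatal day 28, an inbred strain, whose mothers had free access to drinking water with 10% (v/v) ethanol between fertilization and gestation day 8.5. The control group held 6 kidneys of the same strain, sex and age, so that the groups differed by label in the maternal drink alone, and exposure had ended well before birth. Total RNA was hybridised to Illumina arrays, 1 array a sample. Dam and litter are not given in the labels, and neither is whether each sample is a separate animal. The spread behind every p-value is therefore that between these samples, and it may be technical.

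Long-chain fatty acids enter mitochondria as carnitine esters and are then shortened in a spiral of dehydrogenation, hydration, a second dehydrogenation and thiolysis, with electrons passed to the respiratory chain. Peroxisomes run a similar spiral with other enzymes on very long and branched chains, and hand shortened products on to mitochondria. In the kidney the proximal tubule draws most of its energy from this pathway, and the nuclear receptor PPARα, encoded by Ppara, drives many of its genes.

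The proximal tubule markers fixed for this comparison, 13 of 13, lay above background on all 12 arrays, and their summed intensity ran from 204932 to 224160 in ethanol kidneys and from 200304 to 226509 in control kidneys. This sum is carried by its brightest probes. Of the 13 markers 9 had a difference above 0 and 4 below, with a median of 0.10, and Slc5a2 and Slc13a3 differed most, by -0.86 and -0.81 (adjusted p = 0.419 and 0.404). Arrays ethanol 2, ethanol 3 and control 4 lay at the ends of the spread between arrays. Their shares of deposited values below 0 were the smallest, at 8.95%, 16.6% and 8.16%. Other arrays had 19.3% (control 6) to 33.3%, so ethanol 3 was not far from the next array. On the first principal component, which held 32.6% of the variance, the 3 scored 45.6, 37.5 and -62.5. Other arrays ran from -28.7 to 23.4. Fat was also present in uneven amounts. Ucp1, the uncoupling protein of brown fat, spanned 4.69 to 11.11 on the log2 scale in ethanol kidneys and 4.53 to 9.16 in control kidneys, and the summed intensity of 8 tested brown fat markers spanned 4307 to 13622 and 3586 to 8137, with Elovl3 above background on 1 array. The 7 tested white fat markers summed to 240.1 to 2937 in ethanol kidneys and to 329.6 to 2453 in control kidneys. Of the 8 brown fat markers 7 had a log2 difference above 0, with a median of 0.21, and of the 7 white fat markers 4. Of 13 leukocyte markers 12 had a log2 difference below 0, as had 6 of 8 endothelial ones. In whole kidney, fewer cells of a type and less RNA per cell cannot be told apart.

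No member differed between ethanol and control kidneys after adjustment (limma, Benjamini-Hochberg over 23963 probes, call at an adjusted p under 0.05). Across the whole array 0 probes were called (0%), the smallest adjusted p was 0.310, and the members' adjusted p ran from 0.379 to 0.999. At an unadjusted p under 0.05, 2 of the 31 genes passed when each was read by its brightest probe, Decr2 and Acadl, both lower in ethanol. That is 6.45% of the members, below the background of 9.65% of all 12607 tested genes. Over all probes of the members, 10 of 54 passed (18.5%), 9 lower and 1 higher in ethanol, against 12.1% of all tested probes. These 10 probes belong to 7 genes. No member's groups were separate on all 12 arrays, where 0.476% of all genes were, and no member probe's, where 0.484% of all probes were. Differences are ethanol minus control on the log2 scale with the standard error from limma, adjusted p are from the same fit, and groups are given by their lowest, median and highest of 6 kidneys.

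The mitochondrial branch of 16 genes had a median difference of -0.02, with 8 genes below 0, and the peroxisomal branch of 7 genes one of -0.04, with all 7 below 0. Beside these, the median over all tested genes was 0.02, and 45.3% of them lay below 0. Over the 31 members the median was -0.04, with 21 genes below 0 and 10 above. The per-array median of the peroxisomal genes, relative to each gene's mean over the 12 arrays, spanned -0.07 to 0.14 in ethanol kidneys and -0.11 to 0.17 in control kidneys, and that of the mitochondrial genes -0.12 to 0.20 and -0.06 to 0.20. The shifts of both branches were thus smaller than the spread between kidneys of 1 group. Without arrays ethanol 2, ethanol 3 and control 4 the medians were 0.04 for the mitochondrial genes, 6 of 16 below 0, and -0.02 for the peroxisomal genes, 4 of 7 below 0. Where these arrays hold a gene's extreme values, leaving them out moves its difference by construction, so such a shift is no test of it. The share of all tested probes with an unadjusted p under 0.05 fell from 12.1% to 5.98% without them. In that setting the median over all tested genes was -0.002. There 8 of the 31 members turned sign, namely Cd36, Acadvl, Acads, Ehhadh, Acaa1a, Acaa1b, Crat and Pdk4. With all 12 arrays these had differed by -0.02, -0.17, -0.10, -0.01, -0.02, -0.06, -0.12 and 0.07, in that order. The share of all tested genes that turned sign was not computed.

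**Figure D1:**
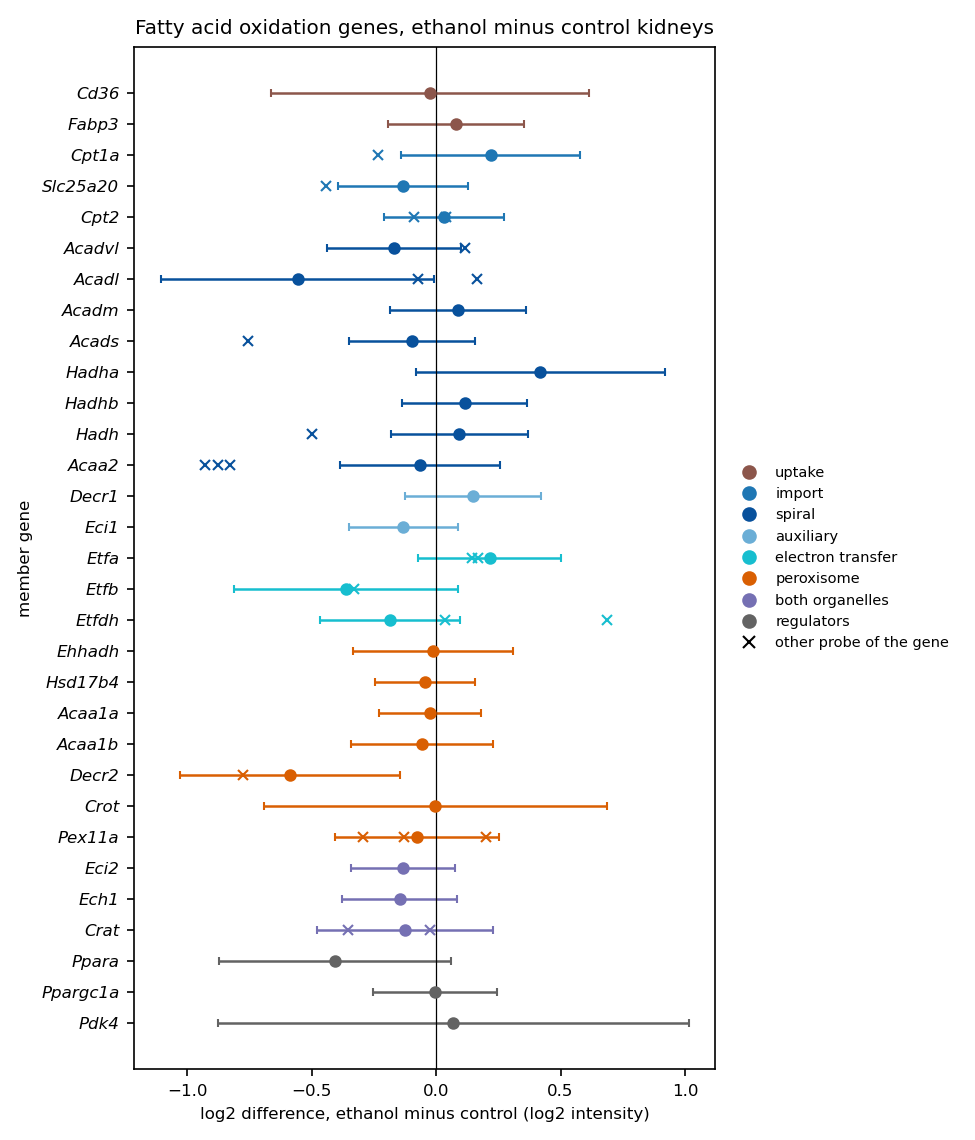
Log2 difference in intensity, ethanol minus control kidneys, for the brightest probe of each of 31 fatty acid oxidation genes (points, with 95% intervals from limma), ordered and coloured by role, with crosses for a gene's other tested probes. Differences of brightest probes run from -0.59 for Decr2 to 0.42 for Hadha, and the crosses of Acaa2, Acads, Etfdh and Hadh lie well away from their points.

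The uptake genes differed little on average between the groups. Cd36 encodes a fatty acid translocase of the cell surface and was read by a dim probe, above background in 5 of 6 kidneys of each group. It measured 5.09, 5.52 and 5.69 in ethanol kidneys and 4.57, 5.17 and 6.59 in control kidneys, a difference of -0.02 ± 0.30 (adjusted p = 0.984). Control 5 and control 6, at 6.44 and 6.59, lay above every other kidney, and the ethanol group lay inside the control range. Fabp3, a cytosolic fatty acid carrier, stood at 11.89, 12.01 and 12.30 in ethanol kidneys and at 11.64, 12.004 and 12.23 in control kidneys, a difference of 0.08 ± 0.13 (adjusted p = 0.822). The groups overlapped over most of their range. Fabp3 was highest in ethanol 4 and lowest in control 5 and control 6, which also had the highest and the 2 lowest brown fat sums (13622, and 3920 and 3586). The part of fat in these levels was not tested.

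Import into mitochondria runs through Cpt1a, which makes the carnitine ester and sets the rate, Slc25a20, which carries it across the inner membrane, and Cpt2, which turns it back into acyl-CoA. Cpt1a read 6.25, 6.79 and 7.09 in ethanol kidneys, against 6.18, 6.497 and 6.94 in control kidneys, a difference of 0.22 ± 0.17 (95% interval -0.14 to 0.58, adjusted p = 0.610). Ethanol 2 and ethanol 5 were the highest kidneys and control 1 the lowest, with wide overlap between the groups. A dimmer second probe of Cpt1a, above background in 2 ethanol and 4 control kidneys, had the opposite sign (-0.23). The brightest probe of Slc25a20 differed by -0.13 and that of Cpt2 by 0.03. A second Slc25a20 probe spanned 5.89 to 6.40 in ethanol kidneys and 6.08 to 6.998 in control kidneys, a difference of -0.44 ± 0.15 (adjusted p = 0.379), and was lowest in ethanol 2. The 3 Cpt2 probes lay within 0.10 of 0 (0.03, 0.04 and -0.09).

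The acyl-CoA dehydrogenases open each turn of the spiral and are named by the chain length they prefer. Acadl, the long-chain enzyme, measured 8.77, 9.74 and 10.44 in ethanol kidneys and 9.49, 10.15 and 10.64 in control kidneys, a difference of -0.56 ± 0.26 (95% interval -1.11 to -0.01, adjusted p = 0.410). Ethanol 2 and ethanol 3 were the lowest kidneys, and the other 4 ethanol kidneys lay inside the control range. Its 2 dimmer probes differed by 0.16 and -0.07, and each ran against the brightest probe over the 12 arrays (r = -0.52 and -0.26). Without ethanol 2, ethanol 3 and control 4 the difference of the brightest probe was -0.21, where leaving out the 2 lowest ethanol kidneys had to raise it. Acadvl, the very-long-chain enzyme, stood at 11.94, 12.24 and 12.48 in ethanol kidneys, against 12.18, 12.37 and 12.65 in control kidneys, a difference of -0.17 ± 0.13 (95% interval -0.44 to 0.10). Ethanol 2 and ethanol 3 were again lowest and control 4 highest, while a second Acadvl probe differed by 0.12. Without these 3 arrays the brightest probe differed by 0.01, and leaving out such extremes had to raise its difference. Acadm, the medium-chain enzyme, was read by 1 probe at 14.50, 14.61 and 14.88 in ethanol kidneys and at 14.35, 14.41 and 14.94 in control kidneys, a difference of 0.09 ± 0.13 (adjusted p = 0.806). Within controls Acadm was split, with control 5 and control 6 at 14.94 and 14.85 and the other 4 below every ethanol kidney. Acads, the short-chain enzyme, differed by -0.10 at its brightest probe and by -0.75 ± 0.32 (adjusted p = 0.392) at a dim one that was above background in 4 ethanol and 6 control kidneys.

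The trifunctional protein, made of the products of Hadha and Hadhb, carries out the later steps on long chains. The only Hadha probe is annotated to a clone sequence, where the Hadhb probe is annotated to a RefSeq mRNA. Whether the Hadha probe reads the main Hadha mRNA was not tested. Hadha measured 7.12, 7.499 and 7.76 in ethanol kidneys, against 6.00, 7.16 and 7.75 in control kidneys. The difference was 0.42 ± 0.23 (95% interval -0.08 to 0.92, adjusted p = 0.479). Control 6 lay more than 0.9 below every other kidney, and the remaining control kidneys overlapped with the ethanol ones. Without control 6 the Hadha difference was 0.21, below those of Cpt1a (0.30) and Etfa (0.23) in the same setting. Hadhb differed by 0.12 (adjusted p = 0.708). Over 12 kidneys the levels of the 2 subunit genes had r = 0.19 and rho = -0.01 (permutation p = 0.556 and 0.973; adjusted over 8 pairs p = 0.890 and 0.985). Leaving out control 6 and ethanol 6, the 2 kidneys farthest from the Hadha median, gave r = 0.16. Both genes start head to head on chromosome 5 of the mouse assembly GRCm38.p6, with 272 bases between their starts. The promoter window of Hadhb, 250 bases before to 50 after its start in RefSeq, shares 228 bases with that of Hadha and is printed because it covers most of the stretch between the pair (plus strand, chr5:30155003-30155302). Capitals mark each copy of GGGCGG, the GC box, on either strand.
Hadhb promoter: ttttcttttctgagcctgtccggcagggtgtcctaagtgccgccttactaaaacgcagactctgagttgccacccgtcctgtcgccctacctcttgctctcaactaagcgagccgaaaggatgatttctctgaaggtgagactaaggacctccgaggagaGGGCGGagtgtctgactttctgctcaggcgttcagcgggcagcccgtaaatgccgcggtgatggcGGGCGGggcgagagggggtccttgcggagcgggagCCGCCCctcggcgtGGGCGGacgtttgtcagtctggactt

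Hadh, the short-chain hydroxyacyl-CoA dehydrogenase, and Acaa2, the thiolase that ends the turn, each had probes that moved apart. The brightest Hadh probe differed by 0.09, and a dimmer one spanned 7.07 to 8.19 in ethanol kidneys and 7.22 to 8.50 in control kidneys, a difference of -0.50 ± 0.22 (adjusted p = 0.402). Their correlation over the 12 arrays was -0.17. The brightest Acaa2 probe read 11.32, 11.68 and 12.13 in ethanol kidneys, against 11.30, 11.81 and 12.06 in control kidneys, a difference of -0.06 ± 0.15 (adjusted p = 0.888). Its 3 other probes differed by -0.88, -0.93 and -0.83 (adjusted p = 0.382, 0.379 and 0.393), each with an unadjusted p under 0.05. These 3 followed each other at r = 0.985 to 0.995 and the brightest probe at r = 0.418 to 0.446. On all 3, ethanol 2 and ethanol 3 were the lowest kidneys and control 1 the highest, with overlap between the groups. Without ethanol 2, ethanol 3 and control 4 the 3 differences were -0.42, -0.51 and -0.40, a rise that follows from leaving out the lowest kidneys. Decr1 and Eci1, which handle double bonds in unsaturated chains, differed by 0.15 and -0.13.

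**Figure D2:**
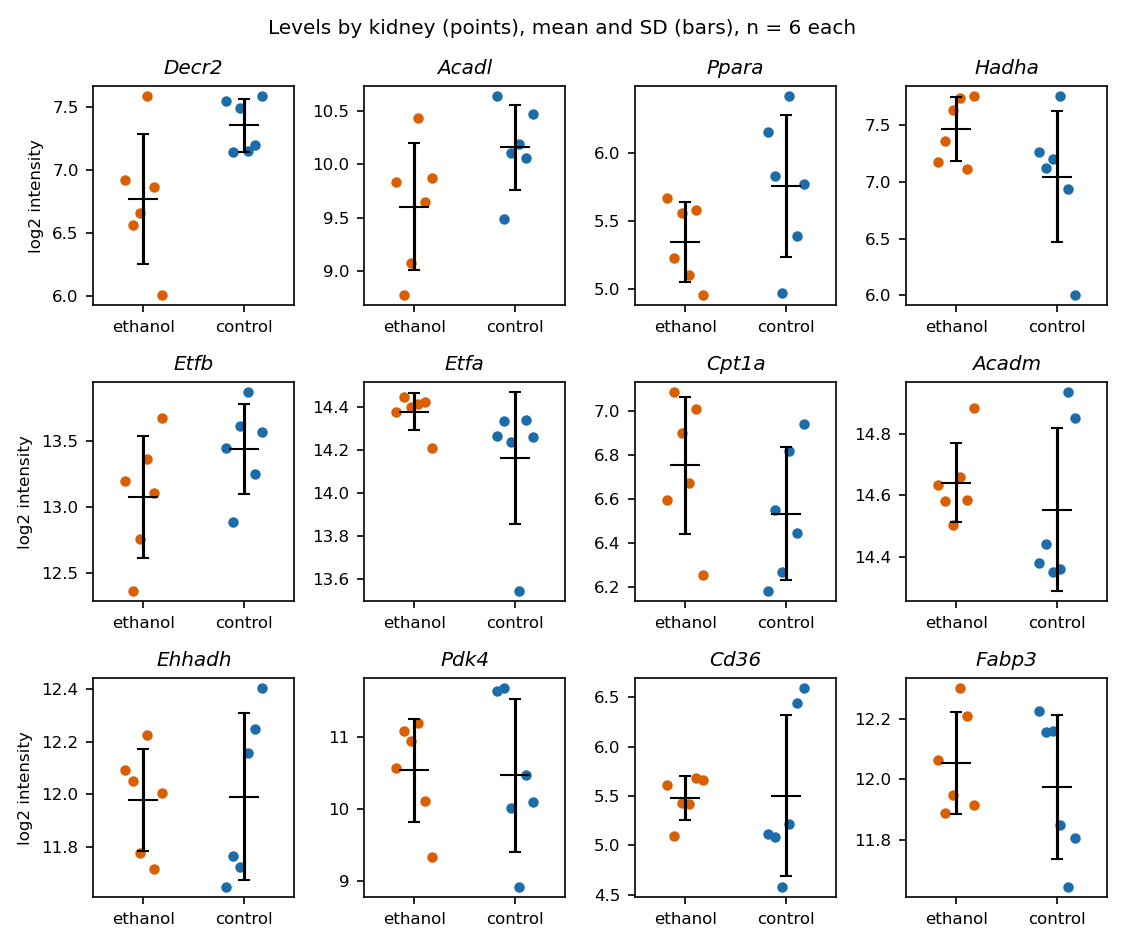
Log2 intensity of the brightest probe of 12 members in each kidney, ethanol left of control (points, 6 kidneys a group), with the group mean and SD as bars and a separate scale for each gene. The groups overlap in every panel, and single kidneys such as control 4 for Etfa, control 6 for Hadha and ethanol 4 for Decr2 lie far from the rest of their group.

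Electrons from the dehydrogenases pass to electron transfer flavoprotein, a dimer of the Etfa and Etfb products, and on to the respiratory chain through the Etfdh product. Etfa stood at 14.21, 14.41 and 14.45 in ethanol kidneys and at 13.54, 14.26 and 14.34 in control kidneys, a difference of 0.22 ± 0.13 (adjusted p = 0.525). Of the 6 ethanol kidneys 5 lay above every control kidney, and ethanol 6 lay below 5 of the 6 controls. Etfb measured 12.36, 13.15 and 13.67 in ethanol kidneys, against 12.88, 13.50 and 13.87 in control kidneys, a difference of -0.36 ± 0.21 (adjusted p = 0.495). Ethanol 2 and ethanol 3 were lowest and control 4 highest, and the other kidneys overlapped. Without these 3 arrays the Etfb difference was -0.02, and its rise was fixed in direction by leaving out these extremes. The Etfa difference was then 0.07, its other 2 probes turned to -0.05 and -0.02 where they had been 0.14 and 0.17, and without control 4 alone it was 0.09. Etfdh read 10.91, 11.26 and 11.63 in ethanol kidneys and 11.19, 11.40 and 11.70 in control kidneys, a difference of -0.19 ± 0.13 (adjusted p = 0.577). Its other tested probes differed by 0.04 and by 0.68 ± 0.24 (adjusted p = 0.379). That last probe is annotated to a clone sequence, where the other tested Etfdh probes are annotated to a RefSeq mRNA. It was the 1 member probe with an unadjusted p under 0.05 that was higher in ethanol. It spanned 6.91 to 7.81 in ethanol kidneys and 5.60 to 7.23 in control kidneys, with control 6 lowest, and ran against the brightest Etfdh probe (r = -0.60).

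Etfa and Etfb ran in opposite directions over the 12 kidneys (r = -0.65, permutation p = 0.00022, adjusted over 8 pairs p = 0.00176; rho = -0.86, permutation p = 0.00058, adjusted p = 0.00464). The correlation was -0.73 within ethanol kidneys and -0.71 within control kidneys, -0.56 after subtracting group means, and -0.74 without control 4 and ethanol 6, the kidneys farthest from the Etfa median. The permutation exchanged kidneys across both groups, and no p was computed for the value after subtracting group means. Without control 4 alone the correlation was -0.78, with a larger permutation p of 0.0025 (adjusted p = 0.0200). Ethanol 2 had the highest Etfa (14.45) with the lowest Etfb (12.36), and control 4 the lowest Etfa (13.54) with the highest Etfb (13.87). The 3 Etfa probes followed each other at r = 0.922 to 0.979 and the 2 Etfb probes at 0.950. Ethanol 2 and control 4 are among the 3 arrays, with ethanol 3, at the ends of the spread between arrays. Without these 3 the correlation was -0.72 over 9 kidneys, and its adjusted p was 0.137. With median scaling in place of quantile normalization it was -0.63 (adjusted p = 0.103), and on the deposited intensities as they stand -0.38 (adjusted p = 0.455). The values of both genes share each array's normalization, and its part in the correlation was not tested.

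**Figure D3:**
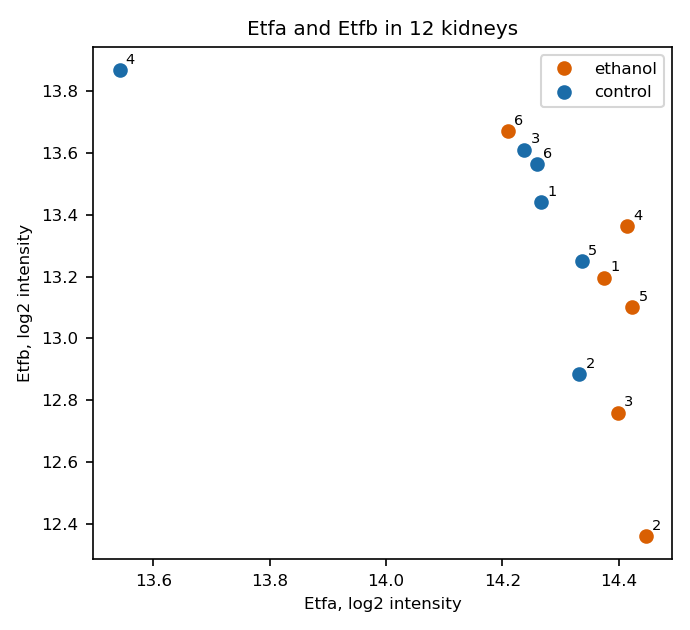
Log2 intensity of Etfb against Etfa in each of 12 kidneys (orange points ethanol, blue points control). Etfb is low where Etfa is high, with r = -0.65 over all kidneys, and control 4 lies alone at the low end of Etfa.

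The promoter windows of this pair are printed because their levels ran in opposite directions, and were chosen after those values were seen. They come from RefSeq on GRCm38.p6, 250 bases before to 50 after each start, at chr9:55512194-55512493 on the minus strand for Etfa and chr7:43443822-43444121 on the plus strand for Etfb. Capitals mark CCAAT and GGGCGG on either strand.
Etfa promoter: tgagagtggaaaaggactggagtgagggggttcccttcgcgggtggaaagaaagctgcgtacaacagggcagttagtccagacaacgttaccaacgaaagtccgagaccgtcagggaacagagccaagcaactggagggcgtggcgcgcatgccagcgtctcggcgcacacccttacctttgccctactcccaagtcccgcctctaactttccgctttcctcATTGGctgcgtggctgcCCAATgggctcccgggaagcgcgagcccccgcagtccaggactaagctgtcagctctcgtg
Etfb promoter: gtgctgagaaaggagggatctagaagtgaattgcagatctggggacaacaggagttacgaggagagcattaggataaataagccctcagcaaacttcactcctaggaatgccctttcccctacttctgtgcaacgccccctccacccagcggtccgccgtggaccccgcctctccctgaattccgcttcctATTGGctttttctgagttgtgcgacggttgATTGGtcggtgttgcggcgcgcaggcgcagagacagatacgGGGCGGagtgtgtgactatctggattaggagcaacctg
Both windows hold CCAAT copies near the start, and the Etfb window alone of the pair holds GGGCGG. Windows were found for 28 members, 29 windows in all. CCAAT was in 13 of these (44.8%), against 37.4% of all 32851 windows of the same length, and GGGCGG in 21 (72.4%), against 35.7%. The overlapping windows of Hadha and Hadhb were both counted for GGGCGG, and the copy in the Hadha window is also in that of Hadhb. Acsl1, which had no probe, is among the 28 members and holds both motifs. The share over all windows includes those of genes of every kind, expressed in kidney or not. DR1, 2 copies of AGGTCA in direct repeat with 1 base between them, which PPARα binds with its partner receptor, was in 0 member windows and in 0.0396% of all windows. The hexamer AGGTCA alone was in 4 member windows (13.8%), those of Acadm, Cd36, Acadvl and Cpt1a, against 16.3% of all windows, and TCAAGGTCA, a site of estrogen-related receptors, in 0, against 0.423%. A missing match says only that these letters are not in this window.

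Of the peroxisomal genes, Decr2 differed most. It encodes the peroxisomal 2,4-dienoyl-CoA reductase, needed for unsaturated chains. Decr2 measured 6.00, 6.77 and 7.59 in ethanol kidneys, against 7.15, 7.35 and 7.59 in control kidneys, a difference of -0.59 ± 0.21 (95% interval -1.03 to -0.15, adjusted p = 0.379). Of the 6 ethanol kidneys 5 lay below every control kidney, with ethanol 6 and ethanol 2 lowest, while ethanol 4 was at the top of the control range. A second Decr2 probe differed by -0.77 ± 0.24 (adjusted p = 0.379) and followed the brightest at r = 0.847. It was the 1 member probe of 54 with an unadjusted p under 0.05 when ethanol 2, ethanol 3 and control 4 were left out (-0.58), where 5.98% of all tested probes passed.

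Ehhadh, the bifunctional enzyme of the peroxisomal spiral and a classic PPARα target in liver, stood at 11.72, 12.03 and 12.23 in ethanol kidneys and at 11.65, 11.96 and 12.41 in control kidneys, a difference of -0.01 ± 0.15 (95% interval -0.33 to 0.31, adjusted p = 0.982). Control kidneys covered both ends of the range, with control 6 highest and control 1 lowest. Hsd17b4, the other bifunctional enzyme, differed by -0.04 and varied least of all members, by 0.33 over the 12 kidneys. The thiolase genes Acaa1a and Acaa1b, near-identical copies whose probes may share RNA, differed by -0.02 and -0.06. Crot, which makes carnitine esters for export, differed by -0.00 at a dim probe, and Pex11a, which promotes division of peroxisomes, by -0.08 at the brightest of its 4 probes. The Pex11a probes ranged from -0.29 to 0.20.

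The 3 enzymes found in both organelles lay below 0 over the 12 kidneys, which did not hold for Crat without ethanol 2, ethanol 3 and control 4. Ech1, a dienoyl-CoA isomerase, read 13.48, 13.61 and 13.72 in ethanol kidneys, against 13.55, 13.69 and 14.10 in control kidneys, a difference of -0.15 ± 0.11 (adjusted p = 0.594). Control 4 was highest and ethanol 2 and ethanol 3 lowest, with the other kidneys between. Eci2, an enoyl-CoA isomerase, measured 11.35, 11.55 and 11.74 in ethanol kidneys and 11.59, 11.68 and 11.81 in control kidneys, a difference of -0.13 ± 0.10 (adjusted p = 0.598). Ethanol 6, ethanol 2 and ethanol 5 lay below every control kidney, and the others overlapped. Crat, carnitine acetyltransferase, differed by -0.12. Without ethanol 2, ethanol 3 and control 4 the differences were 0.13 for Crat, -0.02 for Ech1 and -0.10 for Eci2. For Crat, as for Ech1, these arrays were the lowest and the highest, so a rise had to follow.

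Among the regulators, Ppara had the greatest difference. Its probe was dim, above background in 5 of 6 kidneys of each group, at 4.96, 5.39 and 5.67 in ethanol kidneys and 4.97, 5.80 and 6.42 in control kidneys, a difference of -0.41 ± 0.22 (95% interval -0.87 to 0.06, adjusted p = 0.458). Control 4, control 1, control 2 and control 6 lay above every ethanol kidney, and control 3 was near the bottom. Ppargc1a, a coactivator of PPARα and of mitochondrial biogenesis, differed by -0.01. Pdk4, a kinase that blocks pyruvate use and a PPARα target, stood at 9.33, 10.76 and 11.20 in ethanol kidneys and at 8.91, 10.29 and 11.69 in control kidneys, a difference of 0.07 ± 0.44 (95% interval -0.88 to 1.02, adjusted p = 0.965). Pdk4 had the widest range of the 31 genes, 2.78 over the 12 kidneys, with control 2 and control 1 highest and control 4 lowest, and this spread lay within the groups. Its sign turned under 8 of 22 alternatives, to -0.48 without ethanol 2, ethanol 3 and control 4.

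**Figure D4:**
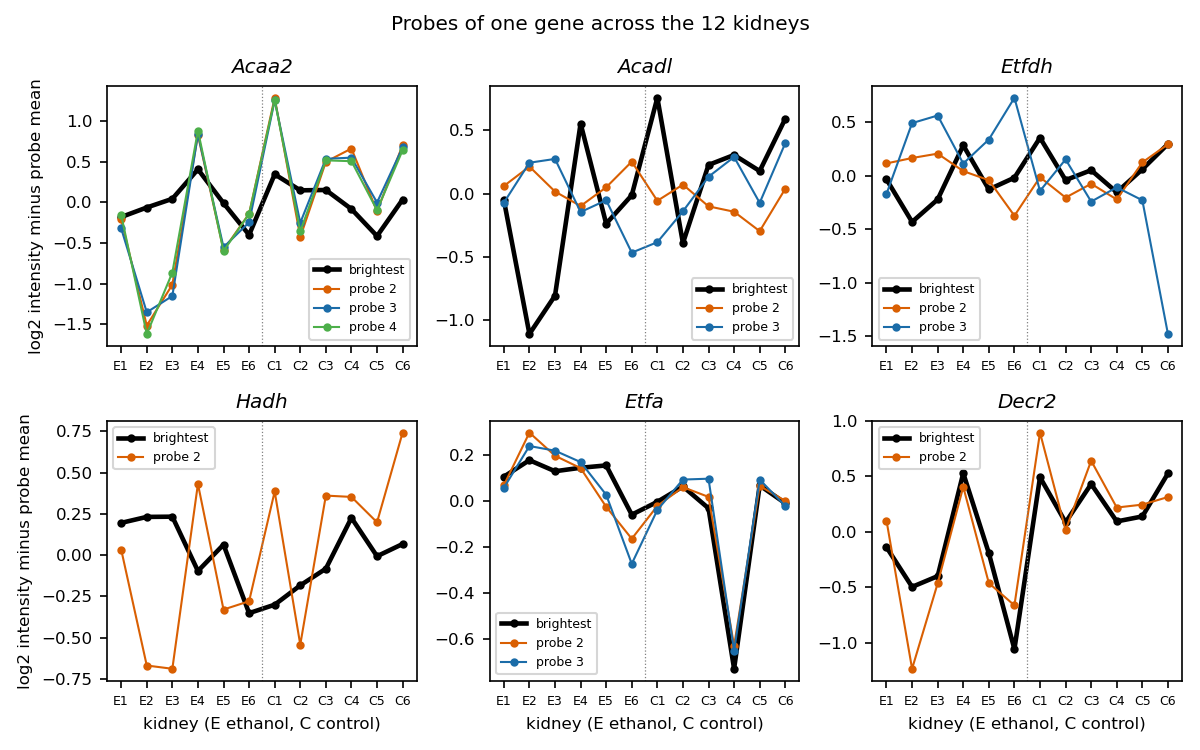
Log2 intensity minus the probe's own mean across the 12 kidneys (ethanol E1 to E6, then control C1 to C6) for each tested probe of 6 members, with the brightest probe as a thick black line. The Etfa and Decr2 probes run together, 3 Acaa2 probes dip in ethanol 2 and ethanol 3 where the brightest does not, and the Acadl, Etfdh and Hadh probes part from each other.

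Of the 14 members with several tested probes, 7 had probes that differed in sign (50%), near the 47% found over 5009 such genes. The 34 probe pairs had a median correlation of 0.562, 19 of them over 0.5, and ran from -0.596 to 0.995. Of the 9 member probes lower in ethanol at an unadjusted p under 0.05, 7 were not the brightest of their gene. On 6 of the 9, ethanol 2 and ethanol 3 were the lowest arrays, which held for 12 of the 54 member probes and for 9.04% of all tested probes. Ethanol 4 was the highest of the 12 arrays for 7 of the 31 members and control 4 for 11, while ethanol 6 was lowest for 7 and ethanol 2 for 6. How often each array was highest or lowest over all tested genes was not counted, so these counts may not be particular to the members.

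Co-variation within a branch was weak at its median. After group means were subtracted, the median correlation over the 120 pairs of mitochondrial genes was 0.06, over the 21 pairs of peroxisomal genes 0.07 and over the 112 pairs between the branches 0.14. Over all 465 pairs of members it was 0.13, with 18.1% of pairs over 0.5 and 7.96% below -0.5, against 0.009, 12% and 11% over all pairs of tested genes. Of the mitochondrial pairs 20% lay over 0.5 and 9.17% below -0.5, and of the peroxisomal pairs 9.52% and 4.76%. These correlations are descriptions over 12 arrays that share one normalization. With median scaling the branch medians were 0.30 and 0.25, and no value over all pairs of genes was computed under that scaling. The strongest positive pairs crossed roles. Decr2 ran with Eci1 (0.92), Crat with Acadvl (0.91), Ppargc1a with Hadhb (0.90), Etfdh with Acadl (0.88), Acadm with Cd36 (0.88), Pdk4 with Hadhb (0.87), Decr1 with Cpt1a (0.85) and Ech1 with Acaa1a (0.85). Each gene was read here by its brightest probe alone. Other probes of the same gene followed it at r = -0.03 for Acadvl, -0.05 for Cpt1a and -0.52 and -0.26 for Acadl. For Etfdh these values were 0.06 and -0.60, for Crat 0.55 and 0.05, and for Decr2 0.85. The remaining genes of these pairs had no second tested probe. The most opposed pair was Etfa with Acaa1a (-0.87). For Ppargc1a, Pdk4 and Hadhb, ethanol 4, control 1 and control 2 were among the 4 highest kidneys. They also had the 3 highest brown fat sums (13622, 7724 and 8137), and the part of fat in them was not tested.

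**Figure D5:**
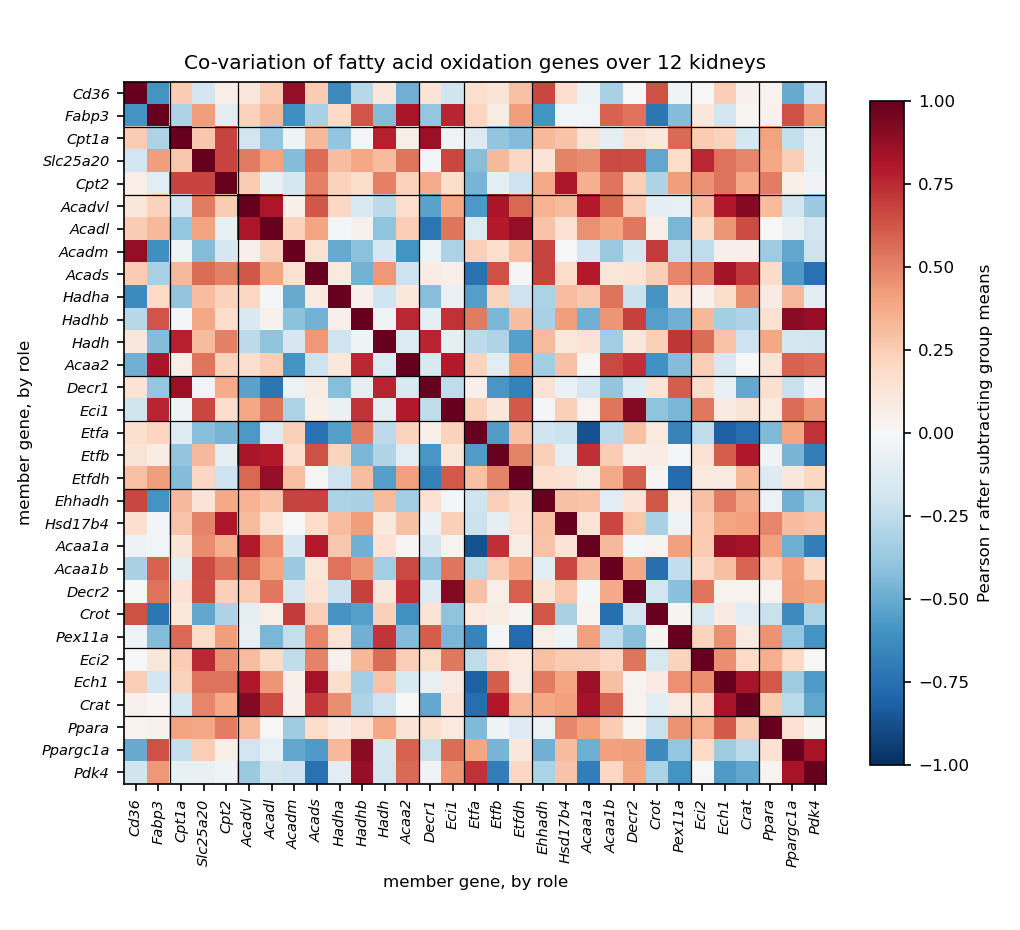
Pearson correlation of each pair of 31 members over 12 kidneys after subtracting group means, ordered by role with lines between roles (red positive, blue negative). Single strong pairs such as Decr2 with Eci1 (0.92) lie outside the blocks along the diagonal, and Etfa runs against many members, most against Acaa1a (-0.87).

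Besides Etfa with Etfb, none of the 8 pairs that were tested, chosen because their products work together or are near-identical copies, passed the threshold. Cd36 and Fabp3 had r = -0.59 (permutation p = 0.0474, adjusted p = 0.190; rho = -0.43, permutation p = 0.172), and r = -0.10 without control 5 and control 6, so that relation rested on these 2 kidneys. Acaa1a with Acaa1b (r = 0.33), Ehhadh with Hsd17b4 (0.29), Acadm with Acadl (0.08), Ppara with Ehhadh (-0.04) and Pdk4 with Cpt1a (-0.05) had adjusted p of 0.702 to 0.901.

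Genes of the same pathways outside the 32 were counted from lists. Of 24 tested genes among 31 others of mitochondrial acyl-CoA breakdown, 1 was higher in ethanol at an unadjusted p under 0.05 (Acadsb, a branched short-chain dehydrogenase, 0.30) and 2 lower (Acad8, which acts in valine breakdown, -0.65, and Acad9, a complex I assembly factor, -0.38), with a median of 0.02. Of 38 tested peroxisomal genes among 43, 0 were higher and 3 lower, with a median of -0.03. These were the membrane channel gene Pxmp2, the transporter gene Abcd4 and the assembly gene Pex10, with differences of -0.39, -0.32 and -0.47. Pxmp2 spanned 8.84 to 9.30 in ethanol kidneys and 9.32 to 9.71 in control kidneys, so its groups did not overlap, as was so for 0.175% of all genes with ethanol lower, and its adjusted p was 0.379. Of 38 tested genes among 46 listed as PPAR partners, targets or related genes, 1 was higher and 0 lower. The higher gene was Nrf1 (0.31), a related transcription factor. The list had a median of 0.03, 21 genes above 0 and a range of -0.31 to 0.62. At an unadjusted p under 0.05, 4.72% of all genes were higher and 4.93% lower, and 0 genes of these 3 lists were called after adjustment. Among genes named whatever their values, Angptl4 and Plin2, PPAR targets of lipid handling, differed by -0.29 and -0.31 and Cpt1b, the muscle and brown fat form of the import enzyme, by 0.21 (adjusted p = 0.594, 0.556 and 0.666).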

How the data were processed

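The deposited table holds linear probe intensity after background subtraction, made in GenomeStudio per the submitters' processing notes. Its version and any scaling were not stated in the sources used here. A second table, with 24 columns in all and detection p-values among them, was not used because its column names match no label. Symbols came from the platform annotation, which named 34885 probes with 1 symbol and 18 with several, and left 10378 unnamed. All 57 member probes carried the symbol that RefSeq (GRCm38.p6) uses.

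For each array the mode of the intensities (kernel density, bandwidth 2, sought below the 0.6 quantile) stood for the background mean and the spread below it for its SD. Normexp correction with offset 16, quantile normalization and log2 followed (limma 3.58.1, R 4.3.3). This estimate replaces control probes and matters most for dim probes. A probe was tested if it exceeded background (normal p under 0.05) on 6 of 12 arrays. Ethanol minus control was fitted with lmFit and eBayes, two-sided, with Benjamini-Hochberg adjustment over 23963 probes, and tested on simulated data first. The brightest tested probe by its mean over 12 arrays stood for a gene, and no probe's level was set against another's. The number of arrays limits the precision.

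Pair correlations used 100000 resamples (two-sided, scipy 1.17.1). Full values are given for the 10 members with the smallest p and for Cpt1a, Pdk4, Ppara, Acadm, Hadha, Ehhadh, Acadl, Decr2, Cd36 and Fabp3, and the other members by their differences. The members and lists were chosen with earlier results of these data known. Alternatives covered background, scaling, filter, averaged probes, array weights, variance prior, a replicate block and arrays left out.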

Additional observations from a re-analysis of the deposited data

Results flagged for a closer look

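In 66 groups of 6 values, 7 held a kidney whose gap to its nearest neighbour exceeded Dixon's 95% critical share of the group's range, and chance alone gives about 1 in 20. Ethanol 4 was high for Acaa1b (gap 0.651 of the ethanol range, 13.78 against 13.09 to 13.33 in the other ethanol kidneys) and for the median of the peroxisomal genes (0.661, 0.14 against -0.07 to 0.00). Ethanol 6 was low for Etfa (0.698, 14.21 against 14.38 to 14.45). Control 4 accounted for the remaining 4. It was low for Etfa (gap 0.875 of the control range, 13.54 against 14.24 to 14.34 in the other controls) and high for Slc25a20 (0.670, 12.23 against 11.78 to 11.93), Pex11a (0.660, 11.32 against 10.35 to 10.68) and Crat (0.645, 10.94 against 10.13 to 10.42).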

How the results depend on the processing

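No member probe was called under any alternative run, and 2 of all tested probes, neither a member, were called on the deposited values as they stand. Member probes with an unadjusted p under 0.05, 10 of 54 as reported, numbered 6 on the deposited values, 1 without ethanol 2, ethanol 3 and control 4, and 5 to 13 with 1 array left out (5 without ethanol 2, ethanol 3 or control 1, 6 without ethanol 5). Of all tested probes 12.1% passed as reported, and 10.2%, 5.98% and 7.65% to 15.9% in these settings, so the whole array moved too. With array weights 14 member probes passed, and 16.7% of all tested probes. For members read by their brightest probe, the share of all genes was computed only as reported. The 2 members became 1 with no background correction, with median scaling, on the deposited values and with no filter, 0 without the 3 arrays, 4 with array weights and 1 to 3 with 1 array left out (1 without ethanol 2, 3 or 5 or control 1, 5 or 6). Decr2 kept p under 0.05 under 21 of 22 alternatives and Acadl under 8. Of 31 members 15 kept their sign under every alternative. Sign changes of other members, none of them called, were not counted as reversals. The mitochondrial median spanned -0.07 to 0.04 and the peroxisomal one -0.08 to -0.02. Median co-variation was 0.30 (mitochondrial) and 0.25 (peroxisomal) with median scaling, and 0.18 for mitochondrial genes without the 3 arrays. No value over all pairs of genes was computed in these settings. Etfa with Etfb missed the threshold with median scaling (-0.63), on the deposited values (-0.38) and without the 3 arrays (-0.72), so 0 pairs passed there, and spanned -0.78 to -0.64 with 1 array left out. The cause of these shifts was not tested. The pair and p-count alternatives were chosen after seeing the data. With the replicate block, 0 probes were called (smallest adjusted p 0.0693). There 12 member probes and 3 members had an unadjusted p under 0.05, as had 14.8% of all tested probes. Same-numbered samples share only a number: their deviations correlated at 0.00 to 0.46, and 1 of 6 numbers matched best with its own. Dim probes (Cd36, Crot, Ppara) are limited by background.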
